A study of Mus musculus with 20 samples.

Results

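The genes described here encode lysosomal hydrolases and their cofactors, lysosomal membrane proteins, subunits of the proton pump (the V-ATPase), autophagy proteins and the factors that control them. They are 39 mouse genes, chosen by symbol and matched through their Ensembl identifiers to rows of 3 tables of read counts. Each was found once in every table, among 47729, 54532 and 55487 genes. Cathepsins were not included.

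RNA was sequenced from sorted type 1 conventional dendritic cells (cDC1s), the XCR1+ dendritic cells that cross-present antigen to CD8 T cells, in 20 libraries of 8 groups. The first table held XCR1+CD8a+ cDC1s of WT C57BL/6 mice on day 15 of TLI/ATS (total lymphoid irradiation with anti-thymocyte serum, a conditioning used to induce transplant tolerance) and of untreated WT C57BL/6 mice, with 2 libraries in each group. The second held EpoR+ and EpoR- fractions of XCR1+CD8a+ cDC1s, both from EpoR-tdTomato mice on day 15 of TLI/ATS, with 2 libraries in each group; EpoR is the erythropoietin receptor. The third held lymph node and spleen cDC1s of Epor-Xcr1-Cre cKO mice and of Eporflox/flox control mice, with 3 libraries in each of 4 groups and no TLI/ATS named in the labels. The cKO lacks Epor where Xcr1 drives Cre, and the controls are named as floxed only, so an effect of Cre itself and of the deletion cannot be told apart. The study's design text gives a gate of its own for each tissue: spleen cDC1s were CCR7+XCR1+SIRPa-, whereas those of lymph node were taken as migratory and XCR1+SIRPa-. A comparison of the tissues is therefore also one of gates. No label says that libraries of a group came from separate animals, so each p-value measures only the spread between these libraries.

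Lysosomes break down proteins, lipids, glycans and nucleic acids with acid hydrolases, which work because the V-ATPase pumps protons into the lumen. Autophagy delivers cytoplasm to the same compartment, with ATG8 proteins on the autophagosome and adaptors that bind cargo. TFEB and TFE3 are transcription factors that are held in the cytoplasm by mTORC1 and, when released, switch on many of these genes through E-box motifs in their promoters. In cDC1s, lysosomal proteolysis is known to be kept mild, which spares antigen for cross-presentation.

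The E-box core CACGTG was searched in RefSeq promoters of GRCm38.p6, each covering 250 bases before to 50 bases after a gene's start. Promoters of 33 of the 39 genes were matched, 40 promoters in all, and none for Asah1, Atp6v0d2, Atp6v1b2, Atp6v1h, Galns and Npc1. CACGTG, which reads the same on both strands, occurred in 9 of these promoters (22.5%), against 7.15% of all 32851 promoters. The longer TCACGTG, searched on both strands and containing the core, also occurred in 9 (22.5%), against 3.77%. The genes with the core were Lamp1, Cln3, Glb1, Gla, Gaa, Naglu, Mcoln1, Atp6v0d1 and Atp6v1a. A match is a run of letters and not a shown binding site. The promoter of Lamp1 is printed because it held 4 copies, starting 61, 45, 28 and 15 bases before the gene's start. That of Gaa held 1 copy 140 bases before the start and that of Glb1 1 copy 48 bases before. Those of Acp2 and Naaa held none and are shown as examples of a gene higher (Acp2) and a gene lower (Naaa) in EpoR+ than in EpoR- cells. Each sequence runs 5′ to 3′ on the gene's strand, with the core in capitals.
Lamp1, chr8:13158911-13159210, plus strand: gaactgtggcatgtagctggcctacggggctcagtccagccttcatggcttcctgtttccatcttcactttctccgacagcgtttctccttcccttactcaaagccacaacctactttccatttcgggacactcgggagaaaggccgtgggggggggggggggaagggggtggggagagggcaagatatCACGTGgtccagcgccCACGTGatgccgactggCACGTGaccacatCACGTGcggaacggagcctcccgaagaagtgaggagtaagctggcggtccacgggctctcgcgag
Gaa, chr11:119267713-119268012, plus strand: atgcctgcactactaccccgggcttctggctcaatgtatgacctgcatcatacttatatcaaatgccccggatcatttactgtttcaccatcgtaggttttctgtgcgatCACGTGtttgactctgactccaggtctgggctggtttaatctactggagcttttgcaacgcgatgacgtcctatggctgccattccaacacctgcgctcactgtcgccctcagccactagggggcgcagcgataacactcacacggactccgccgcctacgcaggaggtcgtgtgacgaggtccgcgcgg
Glb1, chr9:114400828-114401127, plus strand: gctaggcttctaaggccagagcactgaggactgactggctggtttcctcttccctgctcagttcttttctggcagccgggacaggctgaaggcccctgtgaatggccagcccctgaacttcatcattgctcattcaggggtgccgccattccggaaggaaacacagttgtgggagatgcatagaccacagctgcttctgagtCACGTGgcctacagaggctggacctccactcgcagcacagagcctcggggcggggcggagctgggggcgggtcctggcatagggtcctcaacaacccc
Acp2, chr2:91202662-91202961, plus strand: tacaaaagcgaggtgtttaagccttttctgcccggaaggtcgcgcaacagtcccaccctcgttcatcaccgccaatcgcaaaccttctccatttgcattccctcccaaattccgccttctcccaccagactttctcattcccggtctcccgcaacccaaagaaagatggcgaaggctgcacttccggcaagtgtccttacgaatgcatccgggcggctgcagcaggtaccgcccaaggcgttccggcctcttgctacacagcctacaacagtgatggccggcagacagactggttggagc
Naaa, chr5:92278132-92278431, minus strand: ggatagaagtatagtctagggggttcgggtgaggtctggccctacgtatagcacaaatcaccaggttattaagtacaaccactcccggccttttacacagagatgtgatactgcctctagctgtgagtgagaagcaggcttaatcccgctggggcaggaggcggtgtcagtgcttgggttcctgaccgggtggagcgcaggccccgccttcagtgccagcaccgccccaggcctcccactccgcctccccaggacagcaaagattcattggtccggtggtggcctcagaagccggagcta

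Total counts per library ran from 40583507 to 77570149 in the first table, from 33660774 to 40127646 in the second and from 26618029 to 49700660 in the table of cKO and control mice. Epor itself had 525 and 657 counts in EpoR+ and 4 and 11 counts in EpoR- cDC1s. It had 0 counts in all 3 cKO lymph node libraries, against 24, 28 and 4 counts in control lymph node. In spleen it had 0, 2 and 0 counts in cKO and 1, 0 and 6 in control libraries, too few to show a loss. Summed cDC1 markers (15 genes) were detected in every group, with sums of 9872 to 14023 CPM over the libraries of the first table, 8599 to 20002 CPM in the second and 3083 to 5439.7 CPM in the table of cKO and control mice. Levels are given as CPM, counts scaled to the library total and by TMM, and levels of different genes are compared only per kilobase of exon. Folds and p-values come from quasi-likelihood fits in edgeR, with Benjamini-Hochberg adjustment across each table's tested genes, and a gene is said to have risen or fallen when its adjusted p was under 0.05.

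Per kilobase, the prosaposin gene Psap stood first among the 39 genes in 7 of 8 groups. Prosaposin is cut into the saposins, which present sphingolipids to hydrolases. Psap had 5034 CPM per kb in EpoR+, 6002 in EpoR-, 3558 in TLI/ATS and 3014 in untreated cDC1s. In the third table it had 506 CPM per kb in lymph node and 1229 in spleen of cKO mice, and 459 in lymph node and 1169 in spleen of controls. In control lymph node the first place went to Sqstm1, which encodes the autophagy adaptor p62, at 542 CPM per kb. The 3 Psap values of that group, 1345, 625 and 1809 CPM, spread too widely to separate the genes. Ppt1 and Naaa came next in all 4 groups of the first and second tables, and Sqstm1 and Lamp1 were among the first 3 in all 4 groups of the third. Tables were counted separately, so levels in different tables are not set against each other.

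EpoR+ cDC1s carried more RNA of most of these genes than EpoR- cDC1s from TLI/ATS mice. Of 39 members tested, 22 rose, a share to be read against 11.9% of all 15627 genes tested, and 3 fell, against 4.75% (16.7% in all). Atp6v0d2 and Gpnmb passed the filter on low counts only through the EpoR+ libraries, so their calls support nothing. Of the other 37 members, 20 rose and 3 fell. The median log2 fold change was 0.72 over these 37 and 0.02 over all genes. Of all 39 members, 29 had both EpoR+ libraries above both EpoR- libraries, and 6 had both below. Atp6v0d2 and Gpnmb are among the 29 and add no support. Over all genes the shares were 32.0% and 26.1%. Of the 37 members other than these 2 genes, the phosphatases Acp2 and Acp5, the tripeptidase Tpp1 and the membrane protein Lamp1 had the largest rises. The genes that fell, Naaa, Ppt1 and Gusb, were among the more abundant members. The summed CPM of all 39 members was 28990 and 26497 in EpoR+ cells, against 31210 and 29544 in EpoR- cells. Without Psap, which did not pass, the sums were 14320 and 13539 in EpoR+ cells, against 14291 and 13527 in EpoR- cells. Less RNA per cell and fewer cells of a type cannot be told apart in such bulk libraries.

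Markers of other cells moved with the same contrast. All 20 macrophage markers rose, their sum standing at 27836 to 28516 CPM in EpoR+ and 496 to 501 CPM in EpoR- libraries. All 12 erythroid markers rose (2131 to 2494 CPM in EpoR+, 204 to 285 CPM in EpoR-), as did 7 of 12 cDC2 and monocyte markers (2085 to 2152 CPM, against 139.7 to 182 CPM). Of 15 cDC1 markers, 14 fell, with sums of 8599 to 10173 CPM in EpoR+ and 18206 to 20002 CPM in EpoR- libraries, and Naaa is one of them. Sirpa, the marker of cDC2s and macrophages that the third experiment gated out, had 1844 and 1733 CPM in EpoR+ cells, against 33.5 and 24.7 CPM in EpoR- cells. No marker of these 4 lists was at 0 in either group. The part of these differences in the values below was not tested.

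Among the regulators, Tfeb had 60.1 and 63.1 CPM in EpoR+ cells, against 37.7 and 44.6 CPM in EpoR- cells. Tfe3 had 99.0 and 92.9 CPM, against 54.0 and 59.5 CPM. Both genes were higher in each EpoR+ library than in each EpoR- library, and both rose, Tfeb by a log2 fold change of 0.58 ± 0.13 (SE, n = 2 each, edgeR adjusted p = 0.0408) and Tfe3 by 0.76 ± 0.11 (adjusted p = 0.0102). Mcoln1 encodes the lysosomal calcium channel TRPML1 and had 29.8 and 54.7 CPM in EpoR+, against 17.4 and 33.7 CPM in EpoR- cells. Its groups overlapped, with replicate 2 the higher in both, and the log2 fold change of 0.73 ± 0.46 did not pass (adjusted p = 0.387). The call for Tfeb was lost without either EpoR+ library or EpoR- replicate 1 (largest adjusted p = 0.193), and that for Tfe3 without EpoR+ replicate 1 (adjusted p = 0.0755).

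Of 4 membrane proteins, 3 rose. Lamp1 (chr8:13159161-13175338), which lines the lysosomal membrane, had 832 and 798 CPM in EpoR+ cells, against 173 and 144 CPM in EpoR- cells. That is a log2 fold change of 2.36 ± 0.13 (SE, n = 2 each, edgeR adjusted p = 0.0003). Lamp2, its partner in membrane stability and chaperone-mediated autophagy, had 289 and 292 CPM, against 108 and 107 CPM. Scarb2, the receptor that carries glucocerebrosidase to lysosomes, had 256 and 243 CPM, against 113 and 116 CPM. For these genes the EpoR+ libraries lay well above the EpoR- libraries and close to each other. Cln3, a lysosomal membrane protein of Batten disease, had 59.7 and 94.7 CPM, against 35.1 and 77.1 CPM; the groups overlapped and its log2 fold change of 0.46 ± 0.48 did not pass.

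Of 10 glycoside and sulfate hydrolases, 5 rose and 1 fell. Neu1, the lysosomal sialidase, had 78.2 and 110.4 CPM in EpoR+ cells, against 25.9 and 25.2 CPM in EpoR- cells. Gaa, the acid glucosidase that digests glycogen, had 163 and 169 CPM, against 51.6 and 46.5 CPM. Both were several-fold higher without overlap, with log2 fold changes of 1.88 ± 0.19 for Neu1 and 1.76 ± 0.11 for Gaa. Glb1 (beta-galactosidase), Hexa (a subunit of beta-hexosaminidase) and Naglu (which trims heparan sulfate) rose by 1.15, 0.98 and 0.92. Gusb, beta-glucuronidase, went the other way, with 493 and 456 CPM in EpoR+ cells, against 792 and 789 CPM in EpoR- cells (log2 fold change -0.74 ± 0.10, edgeR adjusted p = 0.00625). Gla, Galns, Ids and Man2b1 did not pass, with log2 fold changes of 0.72, -0.35, 0.09 and 0.13.

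Of 8 lipid and protein processing hydrolases, 4 rose and 2 fell. Acp2 (chr2:91202885-91214098), a lysosomal acid phosphatase, had 317 and 300.3 CPM in EpoR+ cells, against 23.3 and 21.1 CPM in EpoR- cells. Acp5, the tartrate-resistant acid phosphatase of osteoclasts and macrophages, had 245 and 262 CPM, against 19.0 and 16.8 CPM. Tpp1, the tripeptidase lost in a form of Batten disease, had 249 and 253 CPM, against 29.4 and 33.0 CPM. In each the EpoR+ libraries were near each other and far above EpoR-, with log2 fold changes of 3.80 ± 0.12 for Acp2, 3.83 ± 0.13 for Acp5 and 3.01 ± 0.12 for Tpp1. Lipa, acid lipase, which frees cholesterol from its esters, had 679 and 577 CPM in EpoR+ cells, against 338 and 299 CPM in EpoR- cells, and rose by 0.98 ± 0.13.

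Naaa (chr5:92257659-92278170), which hydrolyses N-acylethanolamines and is also a cDC1 marker, had 2085 and 1530.5 CPM in EpoR+ cells, against 4183 and 3494 CPM in EpoR- cells. Ppt1 (chr4:122836242-122859175), the thioesterase that removes palmitate from proteins, had 1837 and 1681 CPM, against 3622 and 3620.3 CPM. Both genes were lower in each EpoR+ library, with log2 fold changes of -1.09 ± 0.18 for Naaa (n = 2 each, edgeR adjusted p = 0.0156) and -1.04 ± 0.09 for Ppt1 (adjusted p = 0.00167). Smpd1 (acid sphingomyelinase) and Asah1 (acid ceramidase) were higher without overlap but did not pass, at 0.98 ± 0.25 (adjusted p = 0.0507) and 0.32 ± 0.10 (adjusted p = 0.0799).

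Of the lipid carriers, Npc1 alone rose; it moves cholesterol across the lysosomal membrane and had 145 and 130.5 CPM in EpoR+ cells, against 48.5 and 43.2 CPM in EpoR- cells (log2 fold change 1.59 ± 0.12). Its soluble partner Npc2 and Psap did not pass, at 0.24 ± 0.09 and -0.25 ± 0.10. Of 4 V-ATPase subunits that passed the filter in both groups, Atp6v1a alone rose. Atp6v1a, the catalytic subunit, had 152 and 144 CPM in EpoR+, against 109 and 103 CPM in EpoR- cells, and rose by 0.48 ± 0.11, a call that was lost with the size factors of DESeq2 and when any 1 library was left out (largest adjusted p = 0.217). Atp6v0d2, the osteoclast and macrophage isoform of the d subunit, had 31 and 153 counts (0.828 and 4.00 CPM), against 2 and 2 counts. The ratio of its pooled counts was 44.6, with a 95% counting interval from 17.1 to 165 that covers counting error only. Atp6v0d2 passed the filter only through the EpoR+ libraries, so its interval and call support nothing. The EpoR+ libraries differed from each other several-fold, and the call (edgeR adjusted p = 0.0267) was lost without EpoR+ replicate 2 or either EpoR- library (largest adjusted p = 0.203). The ubiquitous isoform Atp6v0d1, with 148 and 143 CPM in EpoR+ and 118 and 108 CPM in EpoR- cells, did not pass, nor did Atp6v1b2 and Atp6v1h.

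Of the autophagy genes, 3 of 4 rose. Gabarapl1, an ATG8 protein, had 45.1 and 48.8 CPM in EpoR+ cells, against 15.99 and 18.6 CPM in EpoR- cells, and rose by 1.44 ± 0.15. It shares 28.3% of its exon bases with a gene on the other strand, 1700101I11Rik, and counting took no account of strand, so its counts are uncertain. Sqstm1 had 396 and 504 CPM, against 251 and 299 CPM, and rose by 0.71 ± 0.16. Map1lc3b, another ATG8 protein, had 119 and 119 CPM, against 80.6 and 84.7 CPM, and rose by 0.52 ± 0.10. The call for Sqstm1 was lost without EpoR+ replicate 2 or EpoR- replicate 1 (largest adjusted p = 0.128), and that for Map1lc3b without any 1 library (0.154). Gabarapl2 had 56.3 and 53.5 CPM in EpoR+ cells, against 78.9 and 71.1 CPM in EpoR- cells, lower without overlap but not past the threshold (-0.45 ± 0.12, adjusted p = 0.0564). Of the endolysosomal glycoproteins, Grn, progranulin, had 1342 and 1313 CPM in EpoR+ cells, against 571 and 554 CPM in EpoR- cells, and rose by 1.24 ± 0.09. Gpnmb, a glycoprotein of macrophages under lysosomal load, had 152 and 253 counts in EpoR+, against 6 and 13 counts in EpoR- cells. The pooled ratio was 20.7, with a 95% interval from 13.1 to 34.7 that covers counting error only. Gpnmb too passed the filter only through the EpoR+ libraries, so its interval and call support nothing.

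**Figure D1:**
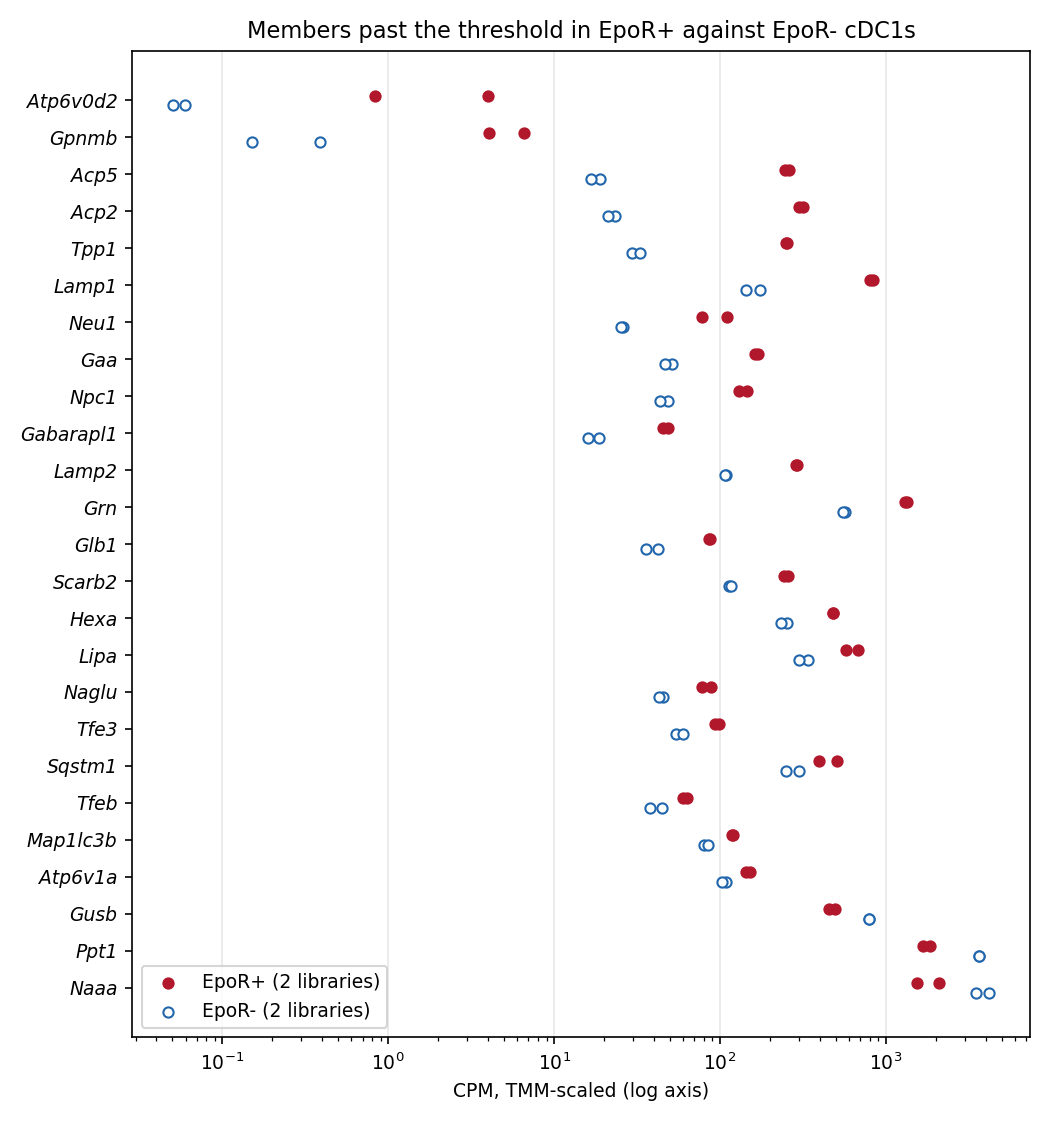
Level of each of the 25 members past the threshold in EpoR+ (filled) and EpoR- (open) cDC1 libraries, in TMM-scaled CPM on a log axis, ordered by log2 fold change. The 22 genes from Atp6v0d2 to Atp6v1a lie to the right in EpoR+ cells, and Gusb, Ppt1 and Naaa to the left. Of all genes tested, 11.9% rose and 4.75% fell. Atp6v0d2 and Gpnmb passed the filter only through the EpoR+ libraries and support nothing.

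Genes with and without the E-box core were among those that rose. Of all 15627 genes tested, 11.9% rose and 4.75% fell. Of the 9 genes with CACGTG in the promoter, 5 rose in EpoR+ cells and 0 fell, with a median log2 fold change of 0.73. Atp6v1a, whose call was lost when any 1 library was left out, is among the 5. Of the 24 genes with a promoter but no core, 15 rose and 3 fell, with a median of 0.87. Gpnmb is in this count and median, though its call supports nothing, so the counts of genes with and without the core support no contrast. Lamp1, with 4 copies, rose by 2.36, and Acp2, with none in this window, by 3.80.

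Genes of the same pathways outside the 39 were taken from lists made for this comparison. Their counts are to be read against the 11.9% of all 15627 genes that rose and the 4.75% that fell. Of 25 further lysosomal hydrolases, 14 rose and 5 fell. Pld3, a lysosomal exonuclease, had 787 ± 65.8 CPM in EpoR+ and 8.23 ± 2.43 CPM in EpoR- cells (SD, n = 2 each; log2 fold change 6.58), and Pla2g15, the lysosomal phospholipase A2, 414 ± 12.1 and 10.3 ± 2.14 CPM (5.32). Dnase2a, the acid DNase, rose by 2.23. Arsb and Plbd1 fell by 1.07 and 0.83 on the log2 scale. Of 25 lysosomal membrane proteins and transporters, 12 rose and 0 fell, among them the histidine and peptide carrier Slc15a3 (4.18), the channel Mcoln2 (4.15) and the sialic acid exporter Slc17a5 (2.37). Of 13 further V-ATPase subunits tested, 5 rose and 1 fell: Atp6v0a1 had 103 ± 12.3 CPM in EpoR+ and 25.6 ± 3.77 CPM in EpoR- cells (2.01), whereas its paralogue Atp6v0a2 had 173 ± 1.44 and 290 ± 4.23 CPM (-0.75).

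Earlier steps of autophagy were also listed, and the same shares of all genes, 11.9% risen and 4.75% fallen, stand beside these counts. Of 28 genes of autophagosome formation, 5 rose and 1 fell, with a median log2 fold change of 0.23; the kinase gene Ulk2 rose by 1.51, the ATG8 gene Map1lc3a by 1.29 and the phosphoinositide binder Wipi1 by 1.92, and Uvrag fell by 0.52. Of 10 autophagy receptors, 3 rose (Optn by 2.18, Wdfy3 by 1.53, Calcoco1 by 0.64) and 2 fell (Retreg1, the receptor for endoplasmic reticulum, by 0.95 and Tax1bp1 by 0.40). Of 20 genes that control mTORC1 and the TFE factors, 5 rose and 2 fell. Mitf and Tfec, relatives of Tfeb, had 25.2 ± 0.138 and 32.4 ± 7.41 CPM in EpoR+ cells, against 4.30 ± 0.562 and 3.59 ± 2.64 CPM in EpoR- cells. Rragd, a Rag GTPase known as a target of these factors, rose by 3.41, and its family member Rraga fell by 0.72 together with Fnip2 (0.71). Of 20 genes of sorting and fusion with lysosomes, 4 rose and 1 fell; the sorting receptor Sort1 had 323 ± 29.2 CPM in EpoR+ and 55.7 ± 11.03 CPM in EpoR- cells, and Stx17, the syntaxin of autophagosomes, fell by 0.64.

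None of the 37 members tested passed the threshold when whole cDC1s after TLI/ATS were compared with those of untreated mice. Of 37 members tested, 0 rose and 0 fell by edgeR, where 0.499% of 17236 genes rose and 2.20% fell (2.70% in all); 2 members had an unadjusted p under 0.05, as did 2705 of the 17236 genes, and DESeq2 called 1 member higher and 1 lower, against 436 and 888 of 18864 genes. Atp6v0d2 and Gpnmb had 0 counts in all 4 libraries, so each lay below 0.0384 to 0.0709 CPM, the level of 3 counts, by counting error alone. Naaa had 3512 and 3356 CPM after TLI/ATS, against 1896 and 1935 CPM in untreated cDC1s, higher in both libraries (log2 fold change 0.84 ± 0.15, n = 2 each, edgeR adjusted p = 0.0614). Npc1 had 12.1 and 17.1 CPM after TLI/ATS, against 31.7 and 28.1 CPM, lower in both (-1.04 ± 0.25, adjusted p = 0.128). Neither pair of groups overlapped. Man2b1, an alpha-mannosidase, had 1444 and 964 CPM after TLI/ATS, against 856 and 861 CPM (0.49 ± 0.23), and Tpp1 had 45.6 and 27.3 CPM, against 46.6 and 48.5 CPM (-0.38 ± 0.28). In both genes the TLI/ATS libraries lay far apart.

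The regulators lay close together in these groups. Tfeb had 70.4 and 68.9 CPM after TLI/ATS, against 65.6 and 74.9 CPM in untreated cDC1s; Tfe3 had 57.5 and 41.2 CPM, against 46.1 and 50.9 CPM; Mcoln1 had 37.3 and 30.7 CPM, against 35.6 and 37.2 CPM. All 3 overlapped between the groups. The TLI/ATS libraries differed from each other: 29 of 37 members were higher in replicate 1 than in replicate 2, with a median ratio of 1.21, against 15 of 37 and a ratio of 0.992 in the untreated pair. Without TLI/ATS replicate 1, 5 members were called higher and 7 lower, where 2299 and 2609 of all 17804 genes tested were so. Without replicate 2, 14 members were higher and 2 lower, where 2519 and 2160 of 17910 genes were so. The lone library was then taken to vary like the untreated pair. The counts of 0 therefore depend on both TLI/ATS libraries. Of the further pathway genes, 1 passed, the peptide transporter Abcb9, with 0.253 ± 0.0582 CPM after TLI/ATS and 3.10 ± 0.599 CPM in untreated cDC1s (-3.59 ± 0.41, adjusted p = 0.0215).

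Markers of other cells also moved here, and their part in these values was not tested. Of 19 macrophage markers tested, 11 rose (1642 to 2151 CPM in sum after TLI/ATS, 519 to 521 CPM in untreated cDC1s). All 12 T cell markers fell (22.6 to 27.2 CPM after TLI/ATS, 737 to 742 CPM untreated), as did all 10 B cell markers (45.2 to 51.6 CPM, against 648 to 659 CPM) and 8 of 10 plasmacytoid dendritic cell markers (244 to 268 CPM, against 1128 to 1133 CPM). Of 11 erythroid markers tested, 7 rose (1446 to 1494 CPM, against 212 to 221 CPM). Of 15 cDC1 markers, Naaa among them, 0 rose and 0 fell, with a median log2 fold change of 0.41. Their sum was 13498 to 14023 CPM after TLI/ATS and 9872 to 9970 CPM in untreated cDC1s. Of these lists, only the erythroid marker Epb42 was at 0, in the untreated libraries.

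**Figure D2:**
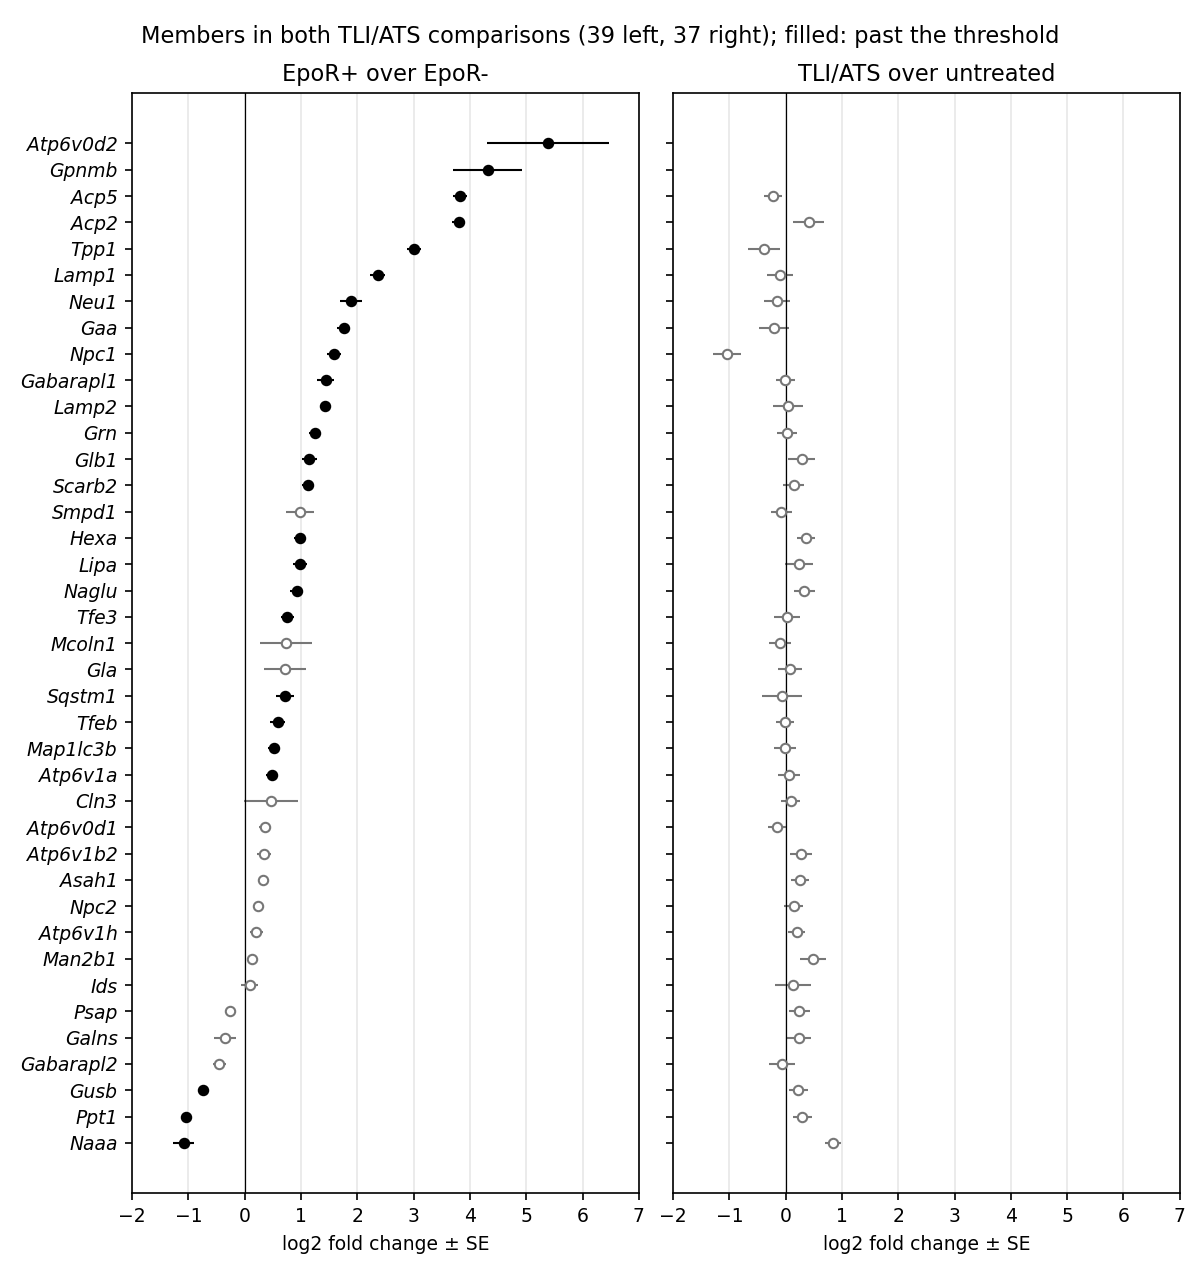
Log2 fold change with its standard error for EpoR+ over EpoR- cDC1s (left, 39 members) and TLI/ATS over untreated cDC1s (right, 37 members), in the order of the left panel; filled points passed the threshold. On the left 22 genes lie to the right of 0 and 3 to the left past the threshold, where 11.9% and 4.75% of all genes did. Atp6v0d2 and Gpnmb, among the 22, passed the filter only through the EpoR+ libraries and support nothing. On the right none passed, with Naaa at 0.84 and Npc1 at -1.04.

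More of these genes were lower than higher in lymph node against spleen cDC1s. In cKO mice 5 of 38 members tested were higher in lymph node than in spleen and 17 lower, that is 13.2% and 44.7%, where 14.1% and 15.3% of 17362 genes were so. In control mice 9 were higher and 13 lower, that is 23.7% and 34.2%, where 21.0% and 20.3% were so. The shares that were higher lay near those of all genes. Either way, 29.4% of genes were called in cKO and 41.3% in control mice. The median log2 fold change of the members was -0.25 in cKO and -0.20 in control mice, against 0.00 and -0.01 over all genes. These counts depend on the scaling. TMM factors ran from 1.06 to 1.13 in lymph node and from 0.837 to 0.936 in spleen libraries. By total counts alone, 10 members were higher and 9 lower in cKO mice and 15 higher and 7 lower in controls, and the median of all genes moved to 0.25 and 0.28; the same scaling gave 3999 genes higher and 1752 lower in cKO mice and 5277 higher and 2406 lower in controls, against 2454 and 2653, and 3651 and 3518, with TMM. In both genotypes, 12 members were lower, 70.6% of those lower in cKO and 92.3% of those lower in control mice: Naaa, Ppt1, Lipa, Psap, Gla, Tfeb, Hexa, Man2b1, Gusb, Lamp2, Atp6v0d1 and Gabarapl2. The 4 higher in both, 80.0% and 44.4% of the lists, were Acp2, Grn, Atp6v1b2 and Mcoln1. By total counts the calls for Lamp2, Gusb and Gabarapl2 were lost in both genotypes, for Atp6v0d1 in cKO and for Hexa and Man2b1 in control mice. Lamp2 passed in 8 of 13 alternatives in cKO and in 5 of 13 in control mice. Its call in controls was lost when any 1 library compared was left out. Gabarapl2 in controls was also lost with only the 6 libraries compared and without spleen replicate 3. Atp6v0d1 in cKO mice was also lost without lymph node replicate 2 or spleen replicate 3. Without control lymph node replicate 1, 5 members were higher in control mice.

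Naaa had 54.7, 64.4 and 54.0 CPM in lymph node, against 240.2, 246 and 237 CPM in spleen of cKO mice. Control values were 49.0, 47.1 and 56.7 CPM in lymph node, against 148, 177 and 159 CPM in spleen. The tissues did not overlap in either genotype, with log2 fold changes of -2.06 ± 0.10 in cKO and -1.66 ± 0.10 in control mice (SE, n = 3 each, edgeR adjusted p = 1.35e-09 and 9.25e-09). Ppt1 had 155, 124 and 179 CPM in lymph node, against 562, 615 and 528 CPM in spleen of cKO mice. Controls had 152, 131 and 137 CPM in lymph node, against 382, 400 and 401 CPM in spleen. Again all lymph node values were the lower, by log2 fold changes of -1.90 ± 0.11 and -1.49 ± 0.11.

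Lipa had 14.2, 20.5 and 14.1 CPM in lymph node, against 47.4, 58.9 and 56.1 CPM in spleen of cKO mice. Control libraries held 13.5, 14.8 and 14.9 CPM in lymph node, against 54.1, 42.9 and 53.3 CPM in spleen. It was lower in every lymph node library, by -1.73 ± 0.16 in cKO and -1.80 ± 0.17 in control mice. Gla, the alpha-galactosidase of Fabry disease, had 7.12, 9.18 and 9.41 CPM in lymph node, against 21.2, 19.9 and 19.7 CPM in spleen of cKO mice (-1.24 ± 0.20). In controls it had 7.87, 4.90 and 6.60 CPM in lymph node, against 19.4, 21.4 and 19.9 CPM in spleen (-1.65 ± 0.20). No lymph node value of Gla reached the lowest spleen value. Psap had 1275, 1695 and 1198 CPM in lymph node, against 3352, 3478 and 3289 CPM in spleen of cKO mice (-1.28 ± 0.32). In controls it had 1345, 625 and 1809 CPM, against 3322, 3809 and 2489 CPM (-1.35 ± 0.32). It did not overlap either, but its lymph node values were scattered. Its call in cKO mice was lost with no low-count filter and without cKO lymph node replicate 1 or 3 (largest edgeR adjusted p = 0.0647).

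Of the regulators, Tfeb fell and Mcoln1 rose in lymph node, and Tfe3 passed in neither direction. Tfeb had 28.8, 29.3 and 37.6 CPM in lymph node, against 72.8, 62.7 and 65.1 CPM in spleen of cKO mice (-1.07 ± 0.13). In controls it had 28.8, 27.5 and 25.3 CPM, against 65.5, 54.6 and 64.2 CPM (-1.18 ± 0.13). Every lymph node value was under every spleen value. Tfe3 had 85.7, 84.5 and 90.1 CPM in lymph node, against 85.6, 84.1 and 84.3 CPM in spleen of cKO mice (0.03 ± 0.10). Control values were 95.1, 87.9 and 84.7 CPM, against 70.4, 91.2 and 83.7 CPM (0.13 ± 0.10), and the tissues overlapped in both genotypes. Mcoln1 had 95.8, 58.2 and 97.9 CPM in lymph node, against 53.9, 52.6 and 42.7 CPM in spleen of cKO mice (0.76 ± 0.20). Control mice had 106, 81.1 and 87.3 CPM, against 79.4, 55.6 and 49.5 CPM (0.57 ± 0.20), without overlap in either genotype. The call in controls was lost without lymph node replicate 1 or spleen replicate 2 or 3 (largest adjusted p = 0.122).

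The other genes higher in lymph node in both genotypes were a phosphatase, a pump subunit and progranulin. Acp2 had 43.2, 43.1 and 48.4 CPM in lymph node, against 21.7, 21.6 and 23.8 CPM in spleen of cKO mice (log2 fold change 1.01 ± 0.14). Its control values were 52.2, 51.8 and 53.5 CPM, against 16.3, 20.5 and 25.02 CPM (1.35 ± 0.15). Lymph node values were about even within a group and above all spleen values. Grn had 463, 458 and 475 CPM in lymph node, against 292, 301 and 258 CPM in spleen of cKO mice (0.72 ± 0.09). Controls had 484, 416 and 479.9 CPM, against 250.1, 295 and 253 CPM (0.79 ± 0.09). Atp6v1b2, a B subunit of the pump, had 433, 464 and 476 CPM in lymph node, against 283, 279.8 and 263 CPM in spleen of cKO mice (0.73 ± 0.07). Its control values were 452, 508 and 459.7 CPM, against 307, 313 and 292 CPM (0.64 ± 0.07). For both genes every lymph node value lay above every spleen value. Glb1, Naglu, Gaa, Ids and Smpd1 rose in control mice, and Npc2 in cKO mice. In the same way Scarb2, Galns, Asah1, Sqstm1 and Gabarapl1 fell in cKO mice and Cln3 in controls. Of these 12 genes, Scarb2 and Gaa passed in all 13 alternative settings and the others did not. None of the differences between the genotypes passed the test of the difference itself, given below.

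Several hydrolases and a pump subunit were lower in lymph node by smaller amounts. Man2b1 had 111, 116 and 109 CPM in lymph node, against 187, 190.2 and 171 CPM in spleen of cKO mice (log2 fold change -0.71 ± 0.09), and 111, 89.3 and 106 CPM, against 141, 132 and 136 CPM, in controls (-0.42 ± 0.09). Hexa had 66.9, 65.9 and 76.5 CPM in lymph node, against 119, 112 and 104 CPM in spleen of cKO mice (-0.68 ± 0.10), and 81.6, 77.0 and 74.8 CPM, against 102, 109 and 124 CPM, in controls (-0.52 ± 0.10). Neither gene overlapped between the tissues. Atp6v0d1 had 113, 96.6 and 124 CPM in lymph node, against 142, 144 and 149 CPM in spleen of cKO mice (-0.39 ± 0.11), and 88.5, 110.4 and 107 CPM, against 162, 142 and 158 CPM, in controls (-0.60 ± 0.11). Gusb had 525, 446 and 531 CPM in lymph node, against 652, 689 and 742 CPM in spleen of control mice (-0.47 ± 0.08). The tissues were again apart. Galns had 5.57, 5.003 and 4.98 CPM in lymph node, against 8.67, 8.41 and 13.2 CPM in spleen of cKO mice (-0.96 ± 0.28). Scarb2 had 49.0, 39.8 and 45.1 CPM, against 66.7, 70.9 and 68.3 CPM (-0.62 ± 0.13), both without overlap.

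Glb1, Naglu, Gaa, Ids and Smpd1 were called higher in lymph node in control mice only, and their control values follow. Of 10 glycoside and sulfate hydrolases, 0 were called higher and 5 lower in lymph node of cKO mice, where 14.1% and 15.3% of all genes were so. In control mice 4 were called higher and 4 lower, where 21.0% and 20.3% of all genes were so. Glb1 had 15.4, 19.7 and 15.4 CPM in lymph node, against 1.75, 11.4 and 5.87 CPM in spleen (log2 fold change 1.42 ± 0.43). Naglu had 17.4, 15.5 and 16.9 CPM, against 13.8, 5.86 and 8.97 CPM (0.79 ± 0.25). In both the spleen values were scattered and lay below all lymph node values. Gaa had 152, 140.5 and 143 CPM, against 110.5, 114 and 92.5 CPM (0.46 ± 0.11). Ids, which removes sulfate from heparan and dermatan sulfate, had 23.97, 19.0 and 19.4 CPM, against 16.8, 14.6 and 12.7 CPM (0.50 ± 0.18). Neither overlapped. Smpd1 had 14.4, 9.48 and 7.35 CPM, against 2.57, 4.495 and 7.75 CPM (1.08 ± 0.36), with overlap. Npc2, called in cKO mice, had 1132, 1273 and 1172 CPM in lymph node, against 988, 930.3 and 1031 CPM in spleen (0.28 ± 0.09), without overlap.

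**Figure D3:**
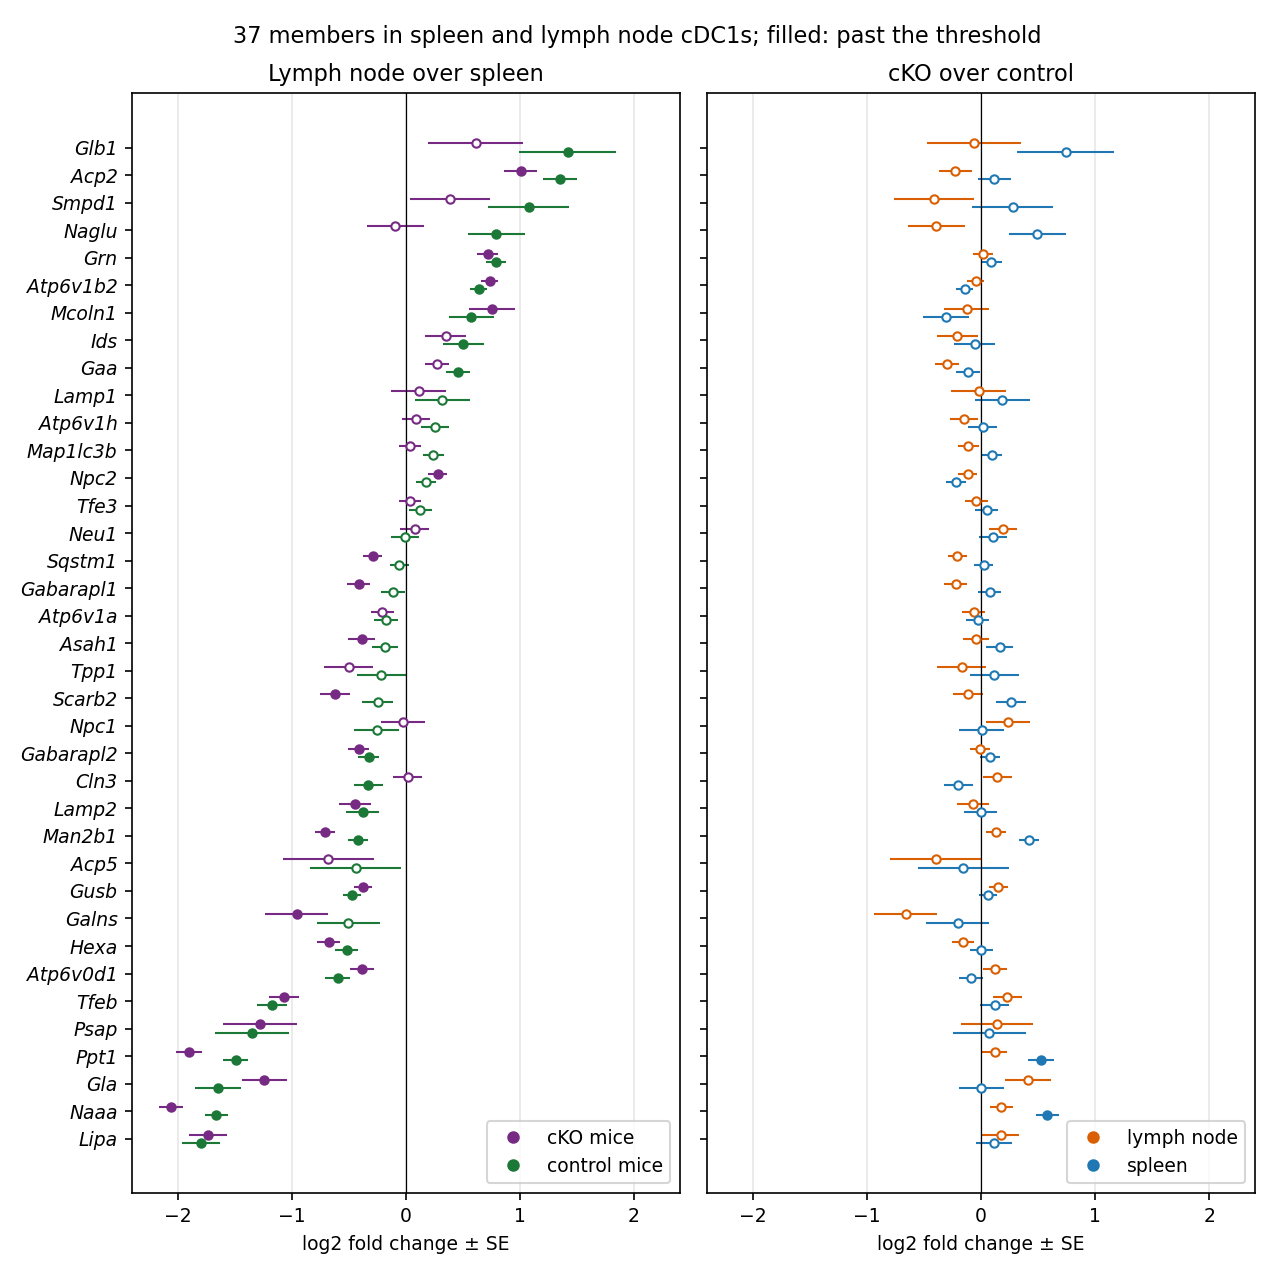
Log2 fold change with its standard error of 37 members for lymph node over spleen (left, cKO and control mice) and cKO over control (right, lymph node and spleen); filled points passed the threshold. Atp6v0d2, at 0 counts in all 12 libraries, and Gpnmb, at 0 to 32 counts per library, are not drawn. On the left Naaa, Ppt1, Lipa, Psap and Gla lie below -1.2 in both genotypes; on the right Naaa and Ppt1 in spleen passed.

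Marker genes differed between the tissues as well, and their part in these results was not tested. Of 15 cDC1 markers, Naaa among them, 12 were lower in lymph node of cKO mice (3199 to 3231 CPM in sum, against 4953 to 5119 CPM in spleen) and 11 in controls (3083 to 3227 CPM, against 4834 to 5440 CPM). Of 14 genes of CCR7-linked maturation, 9 were higher in lymph node and 1 lower in each genotype (31219.9 to 32092 CPM in lymph node and 19449.96 to 21008 CPM in spleen of cKO mice). Macrophage markers summed to 158 to 162 CPM in lymph node and 260 to 298 CPM in spleen of cKO mice, and to 162 to 186 CPM and 322 to 328 CPM in controls. Single markers went both ways. Of 16 tested, 1 was higher and 5 lower in lymph node of cKO mice, and 4 were higher and 5 lower in controls. Their median log2 fold changes were 0.13 and 0.79. Plasma cell markers summed to 334 to 389.8 CPM in lymph node and 5139 to 5578 CPM in spleen of cKO mice, and T cell markers to 225 to 268 CPM and 103 to 115 CPM. In controls, plasma cell markers summed to 362 to 380 CPM and 2476 to 2652 CPM. T cell markers there summed to 314 to 323 CPM and 91.4 to 104 CPM. Of 9 neutrophil markers tested, 8 were lower in lymph node in each genotype. Of 8 erythroid markers tested, 6 were lower in cKO and 5 in control mice. Of 4 basophil and mast cell markers tested, 3 were lower in each. Of all genes, 15.3% were lower in cKO and 20.3% in control mice. Of the macrophage markers, Cd5l was at 0 in cKO spleen and Cd163 in control spleen.

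Pathway lists outside the 39 were compared in the same way. Of all genes, 14.1% were higher and 15.3% lower in lymph node of cKO mice, and 21.0% and 20.3% in controls. The counts below are to be read against these shares. Of 14 further V-ATPase subunits, 7 were lower in lymph node in each genotype, against 1 higher in cKO and 3 in control mice; Atp6v0c, the proton-carrying ring subunit, had 192 ± 7.74 CPM in lymph node and 363 ± 16.9 CPM in spleen of cKO mice (SD, n = 3 each). Of 28 genes of autophagosome formation, 11 were higher and 3 lower in cKO mice and 12 higher and 4 lower in controls. Wipi2, which reads phosphoinositide on the growing autophagosome, rose by 1.12 and 1.32. Of 10 autophagy receptors, 5 were higher in each genotype, led by Calcoco1 (2.13 and 1.74), and 3 and 2 lower. Of 25 further hydrolases, 7 were higher and 7 lower in cKO and 8 and 9 in control mice: Gm2a, the GM2 activator, fell by 2.63 and 2.34, Plbd1 fell by 1.89 and 1.24, and Pld3 rose by 1.63 and 3.44. Of 24 membrane proteins and transporters tested, 4 were higher and 4 lower in cKO and 3 and 5 in control mice, with Slc11a1, the NRAMP1 metal transporter, at 11.5 ± 1.59 CPM in lymph node and 62.2 ± 4.16 CPM in spleen of cKO mice. Of 19 genes of mTORC1 and TFE control tested, 4 were higher and 6 lower in cKO and 4 and 8 in control mice, with log2 fold changes of -2.33 and -4.26 for Mitf. Of 20 sorting and fusion genes, 4 were higher and 2 lower in cKO and 9 and 3 in control mice.

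Few of these genes differed between cKO and control mice. In spleen 2 of 38 members tested were higher in cKO than in control cDC1s and 0 lower, where 0.490% and 0.121% of 17362 genes were so (0.611% in all). They were again Naaa and Ppt1, whose values stand above for the spleen groups, which the tissue comparisons share. Naaa was higher in all 3 cKO spleen libraries (log2 fold change 0.58 ± 0.10, n = 3 each, edgeR adjusted p = 0.0164), as was Ppt1 (0.53 ± 0.11, adjusted p = 0.0427). Man2b1 lay just outside the threshold, with 187, 190.2 and 171 CPM in cKO and 141, 132 and 136 CPM in control spleen, also without overlap (0.42 ± 0.09, adjusted p = 0.0503). Both calls were fragile: that for Naaa was lost without cKO replicate 1 or 2 or control replicate 1 (largest adjusted p = 0.0806). That for Ppt1 was lost without any 1 cKO library or control replicate 1 or 2 (largest adjusted p = 0.181). Tfeb, Tfe3 and Mcoln1 did not pass in spleen, at 0.12 ± 0.13, 0.05 ± 0.10 and -0.31 ± 0.20.

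Of the further pathway genes, Plbd1 alone rose in cKO spleen, with 372 ± 37.8 CPM in cKO and 224 ± 33.2 CPM in control libraries (SD, n = 3 each; log2 fold change 0.73 ± 0.14, edgeR adjusted p = 0.0282). Plasma cell markers also moved in this contrast: 5 of 12 rose, and their sum was 5139 to 5578 CPM in cKO and 2476 to 2652 CPM in control spleen, with none at 0. Their part in the result was not tested. Of the cDC1 markers, only Naaa passed.

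In lymph node, 0 of 38 members were higher and 0 lower in cKO than in control cDC1s by edgeR, where 0.288% and 0.167% of genes were so (0.455% in all); 4 members had an unadjusted p under 0.05, as did 1304 of the 17362 genes, and DESeq2 called 0, against 134 genes higher and 70 lower. Gla had 7.12, 9.18 and 9.41 CPM in cKO, against 7.87, 4.90 and 6.60 CPM in control lymph node (0.41 ± 0.20, adjusted p = 0.686). Galns, a sulfatase of keratan sulfate, had 5.57, 5.003 and 4.98 CPM, against 6.91, 6.51 and 11.1 CPM, lower in each cKO library but not past the threshold (-0.66 ± 0.28, adjusted p = 0.599). Gpnmb had 2, 32 and 13 counts in cKO, against 0, 11 and 0 counts in control lymph node, and 1 library held all of the control counts. Smpd1 had 8.72, 7.13 and 7.61 CPM, against 14.4, 9.48 and 7.35 CPM, with overlap (-0.41 ± 0.35). Naaa and Ppt1, higher in cKO spleen, had log2 fold changes of 0.18 ± 0.10 and 0.12 ± 0.11 here. The difference between the cKO effects of lymph node and spleen passed for 0 of 38 members in either direction, where 0.127% and 0.190% of genes passed (0.317% in all). It was -0.40 ± 0.14 for Naaa (edgeR adjusted p = 0.262) and -0.41 ± 0.16 for Ppt1 (adjusted p = 0.3), and 4 members had an unadjusted p under 0.05, as did 2173 of the 17362 genes. The largest differences were those of Gpnmb (1.52), at the low counts above, and of Naglu (-0.88 ± 0.35). By DESeq2, 0 members were called, against 235 genes higher and 272 lower.

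**Figure D4:**
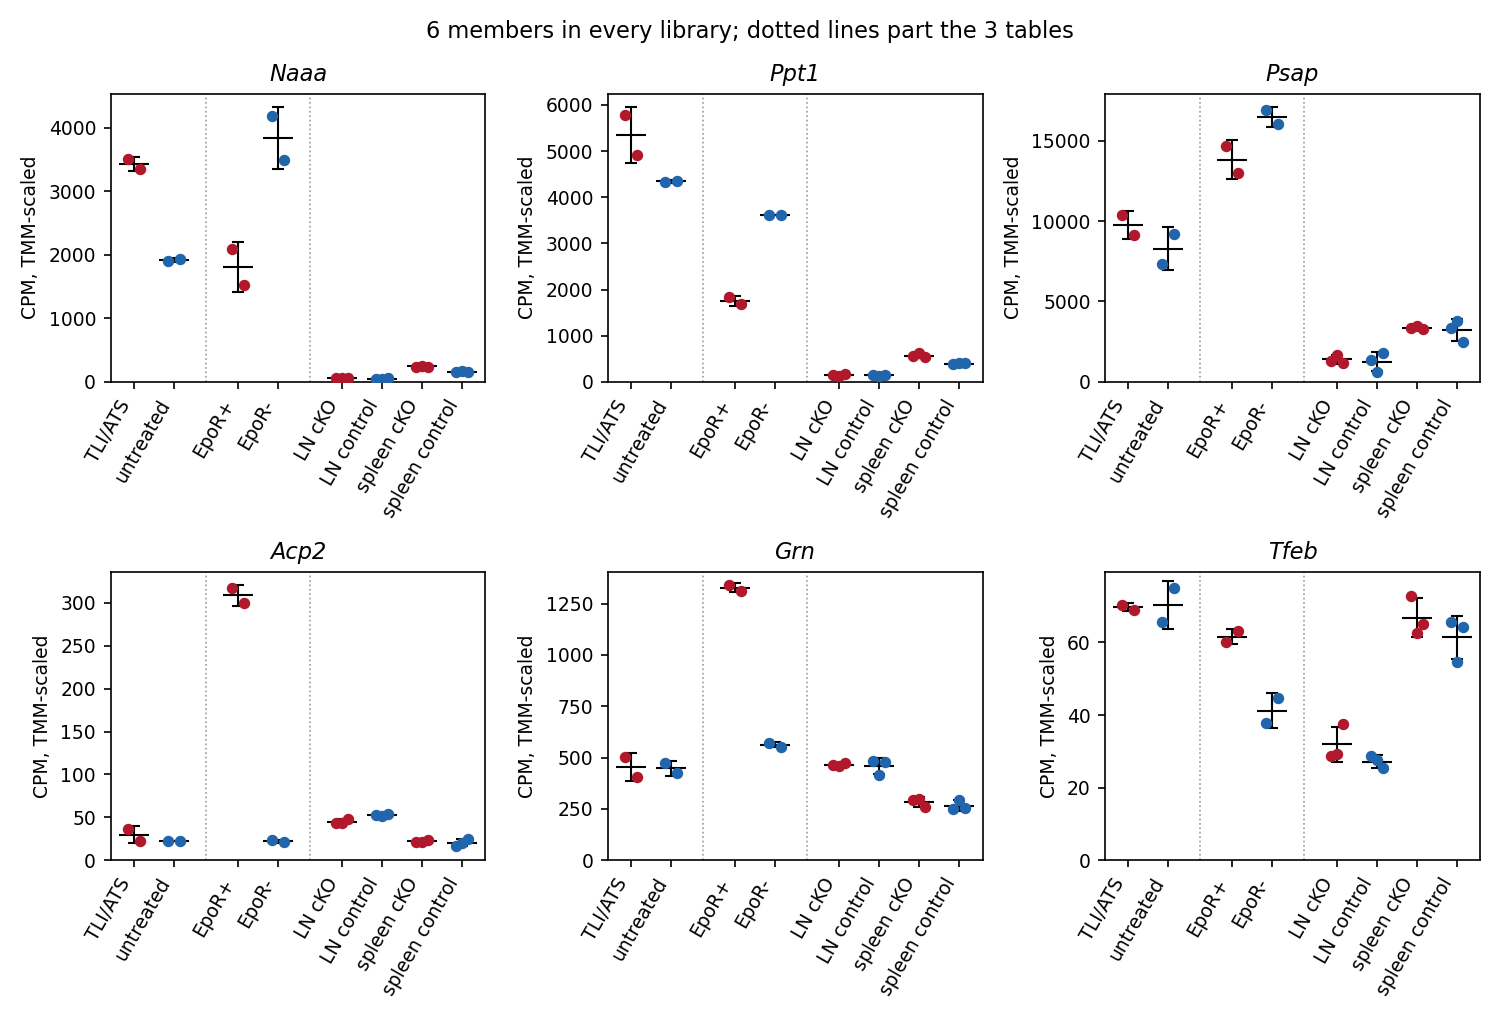
TMM-scaled CPM of 6 members in every library of the 8 groups, with the group mean (dash) and SD (bars, n = 2 in the first 4 groups and n = 3 in the others); dotted lines part the 3 tables, whose levels are not comparable with each other. Within their tables Naaa and Ppt1 are lower in EpoR+ than in EpoR- cells and lower in lymph node (LN) than in spleen, Acp2 and Grn higher, and Tfeb is higher in EpoR+ and lower in lymph node.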

How the data were processed

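The deposited files hold raw, unnormalized read counts, 1 whole number per gene and library. For the TLI/ATS table the submitters' processing notes name GRCm38, HISAT2, SAMtools, StringTie and featureCounts, with no role, order or version. featureCounts 2.0.3 made the EpoR table, per the file headers, and 2.0.8 the cKO table, which also used HISAT2 2.1.0 and Ensembl release 100. Strand was ignored in these tables, and a read pair could add 2 counts, so counting intervals, which cover counting error only, are too narrow. Of the 39 genes, 13 shared exon bases with another gene in GENCODE annotation.

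Each table was tested alone with edgeR 4.0.16 in R 4.3.3: filterByExpr (minimum count 10, minimum total 15), TMM, robust quasi-likelihood fit with a mean per group (all 12 libraries together in the cKO table), Benjamini-Hochberg adjustment, threshold 0.05. SE is the log2 fold change divided by the root of F. Alternatives were DESeq2 1.42.0 (also its size factors), total counts, no filter, replicate blocks, only the libraries compared, and leaving out each library. Values in every library are given for the regulators and for up to 10 members per direction past the threshold with the largest changes, or the 2 largest per direction where none passed; further genes are up to 3 per list and direction, of which 1 is not reported here. The members and lists were chosen with earlier results of these data known.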

Additional observations from a re-analysis of the deposited data

How the results depend on the processing

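Of the 25 members past the threshold in EpoR+ against EpoR- cDC1s, 19 passed in all 9 alternatives; the higher count ran from 17 to 19 with a library left out. Of the 22 past it between lymph node and spleen, 12 in cKO and 11 in control mice passed in all 13 alternatives. By total counts the tissue counts were 10 higher and 9 lower in cKO and 15 higher and 7 lower in control mice; with only the 6 control libraries 5 were higher, and with a library left out 5 to 10. For TLI/ATS, DESeq2 called 1 higher and 1 lower and the replicate block 1 lower, and leaving out a library gave 0 to 14 higher and 0 to 7 lower. For cKO spleen, 1 was higher with the replicate block, the call for Ppt1 being lost (edgeR adjusted p = 0.107), and 0 to 3 with a library left out.

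Same-numbered libraries deviated together in the second table, with a correlation of 0.42. With 2 libraries per group and no label naming pairs, this cannot settle whether the numbers pair the samples there. The correlation was -0.02 in the first table and -0.06 to 0.04 in the third, where the numbers were not shown to pair the samples. With the replicate block, 30 members were higher and 5 lower in EpoR+ cells, and 3084 genes were higher and 2272 lower, against 1865 and 742.

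Changes of sign touched small differences, none of which passed with its sign changed. Tfeb after TLI/ATS (-0.012) was 0.029 with no filter and 0.018 by DESeq2, and -0.11 to 0.089 with a library left out. Tfe3 there (0.024) was -0.085 by total counts and -0.23 to 0.25, and Mcoln1 -0.24 to 0.037. In cKO against control, Tfe3 ran from -0.029 to 0.15 in spleen and from -0.079 to 0.0085 in lymph node, and Mcoln1 from -0.25 to 0.085 in lymph node. The difference of the cKO effects ran from -0.0299 to 0.17 for Tfeb and from -0.056 to 0.39 for Mcoln1. The cause of these changes was not tested. With 2 or 3 libraries per group the spread rests on few values.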
